A study of Homo sapiens with 8 samples.

Results

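The genes described here code for the m6A methyltransferase complex, the enzyme that puts N6-methyladenosine (m6A) on messenger RNA. They are METTL3, METTL14, WTAP, KIAA1429 (now named VIRMA), ZC3H13, CBLL1, RBM15 and RBM15B, together with METTL16, a separate m6A methyltransferase. They were picked by gene symbol, and all 9 were found among the 56303 genes of the count table and passed the filter on low counts in every comparison. MeRIP-seq was performed in SK-N-BE(2), a human cell line established from a neuroblastoma. One arm expressed the control shRNA sh-NC and the other an shRNA directed at METTL14 (shMETTL14). The study's methods give pLKO.1 lentiviral vectors for knockdown. There were 2 cultures per arm, and each gave an IP and an input library, 8 libraries in all. The labels do not say whether the numbered shMETTL14 cultures carry the same or different METTL14 shRNAs, nor whether they were infected separately. P-values therefore measure only the spread between these samples, which may be technical.

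In the nucleus METTL3 and METTL14 form a pair. METTL3 holds the active site, and METTL14 carries no working active site of its own but supports METTL3 and helps to bind the RNA. WTAP tethers this pair to nuclear speckles, and VIRMA, ZC3H13 and CBLL1 (also called HAKAI) build the scaffold around it. RBM15 and RBM15B are paralogous RNA-binding proteins that bring the complex to its targets. METTL16 works outside the complex and methylates U6 snRNA and the MAT2A mRNA, which codes for the enzyme that makes the methyl donor. The mRNAs of the writer genes can themselves carry m6A.

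In MeRIP-seq, messenger RNA is cut into short pieces, 10% of them are saved as input, and an m6A antibody pulls the IP out of the remainder. The input gives the RNA level, and IP over input is high for an mRNA that takes a larger share of the pulled-down pieces than of the input. Levels are given as CPM, counts relative to the total of the library, scaled with TMM factors over the 8 libraries. Total counts ran from 32027379 to 47205265 per library, and genes with fewer counts have wider intervals. The neuroblastoma markers named here had reads in every library, from MYCN at 4224 to 5510 CPM down to DBH at 2.07 to 4.64 CPM. Markers of other cell types summed to 254 and 261 CPM in the sh-NC inputs and 240 and 242 CPM in the shMETTL14 inputs, and to between 196 and 204 CPM in the IPs. From 4 to 6 of these 7 genes had reads in a library, nearly all from the collagen genes COL3A1 and COL1A1. The epithelial gene EPCAM stood at 4.87 to 6.31 CPM and the blood gene PTPRC at 0.390 to 0.783 CPM, while CD3E (blood), CDH1 (epithelium) and ALB (liver) had no more than 6 counts in any library. Several markers stood apart between the arms in input. The input level of TH was 32.6 and 35.7 CPM in sh-NC against 68.9 and 70.2 CPM in shMETTL14, and those of ISL1 and DBH were higher in both shMETTL14 inputs too, at 29.5 and 25.2 CPM against 20.0 and 20.2 CPM for ISL1 and at 4.46 and 3.92 CPM against 2.38 and 2.33 CPM for DBH. GATA3 and HAND2 also lay higher in both shMETTL14 inputs, while MYCN and PHOX2A overlapped. The collagen genes went in opposite directions. COL1A1 stood at 82.3 and 88.5 CPM in the sh-NC inputs and at 54.9 and 52.1 CPM in the shMETTL14 inputs. COL3A1 stood at 165.2 and 165.8 CPM in the sh-NC inputs and at 178.9 and 184.5 CPM in the shMETTL14 inputs. The part of these markers in the results was not tested.

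The study describes YY1 and ETS1 as regulators of METTL14 transcription. The start of METTL14 is therefore shown beside that of METTL3, with the ETS-type core in capitals (CCGGAA, or CCGGAAGT where the longer form is present, on either strand). The bases are RefSeq's, GRCh38.p14, on the gene's strand. METTL14 is read from chr4:118685292-118685395 on the plus strand, from 100 bases before the RefSeq start to base 4 of the gene. METTL3 is read from chr14:21511346-21511440 on the minus strand, from 100 to 6 bases before the start. Its further CCGGAA places, from base -130 and from base 4, fall outside the stretch shown. No YY1 motif was searched for.
METTL14: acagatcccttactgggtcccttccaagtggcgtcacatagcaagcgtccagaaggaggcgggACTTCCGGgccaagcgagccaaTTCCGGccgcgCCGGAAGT
METTL3: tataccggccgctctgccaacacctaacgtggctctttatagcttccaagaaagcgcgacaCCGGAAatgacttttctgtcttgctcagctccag

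Promoter windows of 250 bases before to 50 after the start were listed for 8 of the 9 genes. The 8-letter form CCGGAAGT was found in 2 places in the METTL14 window, from base -37 on the reverse strand and across the RefSeq start from base -4. The count table starts both genes shown further upstream, METTL14 at 118685368 against 118685392 in RefSeq and METTL3 at 21511375 against 21511340. The METTL14 place from base -4 thus lies within the gene as counted. The 8-letter form was present in 4.14% of the 35116 promoters of the RefSeq table, and among the 8 genes listed in ZC3H13 also. The 6-letter core CCGGAA, which lies within the longer form, was found in 17.2% of all promoters. METTL14 had 3 places with it, METTL3 had 3, ZC3H13 had 2, and CBLL1 and METTL16 had 1 each. None was found in the windows of WTAP, RBM15 or RBM15B. These matches describe letters and are not measured binding sites.

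The RNA level of the complex was compared first, in the 4 input libraries. METTL14 fell to 0.290 of its control level, RBM15B rose 1.41-fold and KIAA1429 (VIRMA) rose 1.19-fold. The remaining 6 genes, METTL3 and WTAP among them, did not pass the threshold of 0.05 on the adjusted p-value of edgeR's quasi-likelihood test. Thus 2 of 9 genes were higher, where 11.7% of the 22245 genes tested were higher, and 1 of 9 was lower, where 12.3% were lower. The median log2 fold change was 0.08 over the 9 genes and 0.00 over all genes tested.

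METTL14, the partner of METTL3 that the shRNA targets, lies at chr4:118685368-118715433 on the plus strand with GRCh38 coordinates taken from the count table. Its input counts were 1771 and 1759 in sh-NC against 580 and 612 in shMETTL14. Scaled to depth, these were 49.5 and 48.8 CPM in sh-NC against 13.7 and 14.6 CPM in shMETTL14, so that both knockdown cultures lay well below both control cultures. The log2 fold change was -1.79 (standard error, SE, 0.0663, 95% interval -1.92 to -1.65, adjusted p = 1.28e-15 from edgeR with Benjamini-Hochberg adjustment). Among all genes tested, METTL14 ranked 9 by p-value. In bulk RNA, fewer cells with knockdown and less METTL14 RNA per cell cannot be told apart.

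METTL3, the catalytic subunit, lies at chr14:21498133-21511375 on the minus strand. Its input level was 50.1 and 49.1 CPM in sh-NC against 50.3 and 49.2 CPM in shMETTL14, and the arms overlapped. The log2 fold change was 0.01 (95% interval -0.10 to 0.12, adjusted p = 0.928 from edgeR), so the interval holds changes of about the same small size in both directions. Of the bases in METTL3 exons, 6.58% also belong to TOX4 on the opposite strand. Compared per length of exon, METTL14 stood at 0.849 and 0.853 of the METTL3 level in the sh-NC inputs and at 0.234 and 0.256 in the shMETTL14 inputs. By this length, METTL14 lay a little below METTL3 in control cells and far below it in knockdown cells. The length counts all merged exons of a gene, whichever transcripts the cells make. The ratio within an arm therefore depends on it, while its fall between the arms does not.

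**Figure D1:**
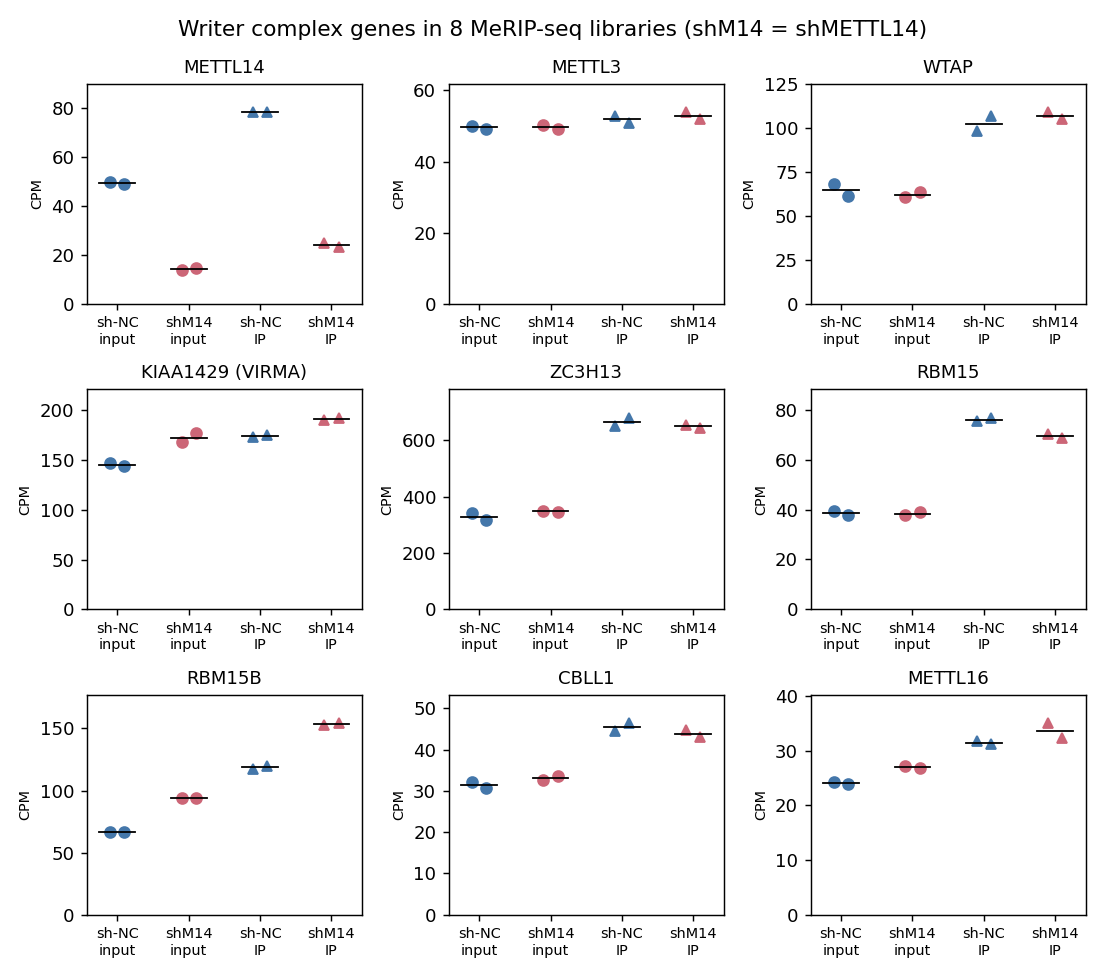
CPM (vertical axis, from 0) of the 9 genes in the 8 libraries, with circles for input, triangles for IP, blue for sh-NC, red for shMETTL14 and a black line for the mean of 2 cultures. METTL14 drops in input (49.5 and 48.8 to 13.7 and 14.6 CPM) and in IP, RBM15B is higher in both, and METTL3 stays close to 50 CPM in all libraries.

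Among the scaffold genes, WTAP (chr6:159725585-159756319, plus strand), which anchors the METTL3 and METTL14 pair, had input levels of 68.1 and 61.4 CPM in sh-NC against 60.9 and 63.5 CPM in shMETTL14. The arms overlapped, and the log2 fold change was -0.05 (95% interval -0.16 to 0.06, adjusted p = 0.548 from edgeR). Of its exonic bases, 7.5% are shared with SOD2 on the opposite strand, which rose (log2 fold change 0.34, adjusted p = 3.65e-06 from edgeR). With SOD2 reads taken off in proportion to the shared length, WTAP again did not pass.

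KIAA1429 (VIRMA), the largest scaffold protein of the complex, lies at chr8:94487693-94553529 on the minus strand. Its input level was 146.7 and 144.3 CPM in sh-NC against 168.0 and 177.2 CPM in shMETTL14, with both knockdown cultures above both controls. The log2 fold change was 0.25 (SE 0.0387, adjusted p = 2.3e-05 from edgeR). With each culture left out in turn, the log2 fold change was 0.21 to 0.29, lowest without shMETTL14 culture 2. The call held, but only narrowly without that culture.

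ZC3H13 (chr13:45954465-46052759, minus strand), which keeps the complex in the nucleus, was the most abundant member per length. Its input level was 343.0 and 315.4 CPM in sh-NC against 348.2 and 346.7 CPM in shMETTL14. The knockdown cultures lay just above the higher control. The log2 fold change was 0.08 (95% interval 0.01 to 0.16, adjusted p = 0.103 from edgeR), and it passed the threshold without sh-NC culture 1 (0.14, adjusted p = 0.00761).

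CBLL1 (chr7:107743697-107761667, plus strand), a RING-finger ubiquitin ligase first known for E-cadherin, had input levels of 32.1 and 30.7 CPM in sh-NC against 32.6 and 33.6 CPM in shMETTL14. The log2 fold change was 0.08 (95% interval -0.04 to 0.21, adjusted p = 0.379 from edgeR). The groups did not overlap, but their nearest cultures were close, at 32.1 CPM in sh-NC and 32.6 CPM in shMETTL14. The gene AC002467.7 shares 6.08% of the exonic bases on the opposite strand and did not pass (adjusted p = 0.585 from edgeR).

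The RNA-binding adaptors RBM15 and RBM15B had different changes. RBM15 (chr1:110338506-110346681, plus strand) had input levels of 39.2 and 37.9 CPM in sh-NC against 38.0 and 38.8 CPM in shMETTL14. Its arms overlapped, and the opposite-strand gene RP5-1074L1.1, which shares 3.75% of the exonic bases, had at most 10 counts in a library. The RBM15 log2 fold change was 0.00 (95% interval -0.12 to 0.12, adjusted p = 1 from edgeR). RBM15B (chr3:51391268-51397908, plus strand, a gene of 1 exon in the table) had input counts of 2381 and 2414 in sh-NC against 3987 and 3922 in shMETTL14. These were 66.6 and 66.9 CPM against 94.1 and 93.9 CPM. The distance between the arms was many times the difference between cultures of an arm. RBM15B rose by a log2 fold change of 0.50 (SE 0.0440, 95% interval 0.41 to 0.59, adjusted p = 5.8e-09 from edgeR), and the intervals of the paralogs lie apart, while the difference between the paralogs was not itself tested. Per length, the RBM15B level was 1.19 and 1.24 times the RBM15 level in the sh-NC inputs and 1.74 and 1.70 times in the shMETTL14 inputs.

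The count of RBM15B needs a check, because 20% of its exonic bases are shared with DCAF1 on the opposite strand and the strand setting of the counting is not given. DCAF1 itself did not pass (log2 fold change 0.10, adjusted p = 0.241 from edgeR). With DCAF1 reads taken off in proportion to the shared length, the RBM15B log2 fold change was 0.55 (adjusted p = 2.12e-09). With every DCAF1 read taken off, which removes more than the overlap can hold, RBM15B was left with 806 and 871 counts in sh-NC against 1932 and 2080 in shMETTL14, and the log2 fold change was 1.04 (adjusted p = 1.47e-11). The rise was larger without these reads. Because DCAF1 changed less than RBM15B, taking off its reads could only enlarge the rise, so this check is no separate support for it.

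METTL16 (chr17:2405562-2511891, minus strand), the methyltransferase outside the complex, had input levels of 24.3 and 24.0 CPM in sh-NC against 27.2 and 26.8 CPM in shMETTL14. Both knockdown cultures lay above both controls. The log2 fold change of 0.17 (95% interval 0.03 to 0.31) did not pass after adjustment (adjusted p = 0.0718 from edgeR).

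**Figure D2:**
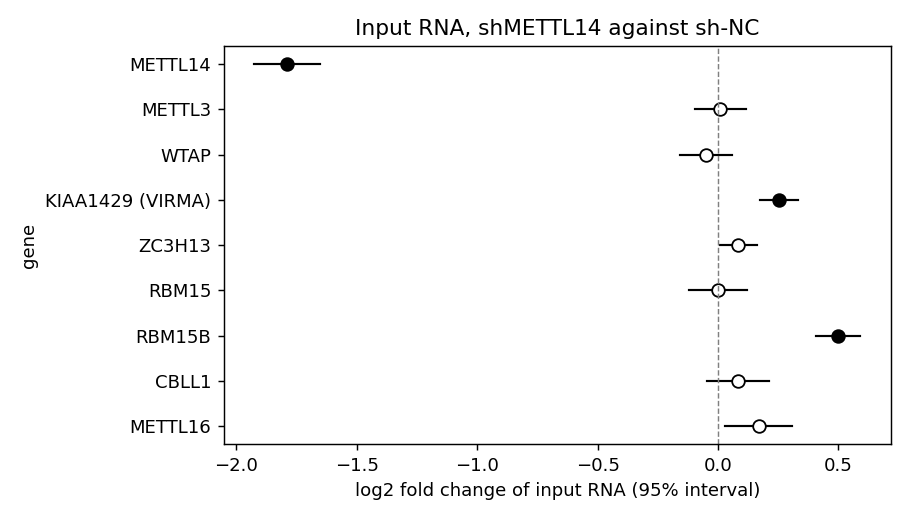
Log2 fold change of input RNA in shMETTL14 against sh-NC (horizontal axis) for the 9 genes, with 95% intervals over 2 cultures per arm and filled points for genes past the adjusted threshold of 0.05. METTL14 lies at -1.79, RBM15B at 0.50 and KIAA1429 at 0.25, and the other 6 genes lie between -0.05 and 0.17 with open points.

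Levels of different genes were compared per kilobase of exon. The exons are all those annotated for a gene, merged, and the transcripts in use were not examined. The order of the genes therefore depends on these lengths. In the sh-NC inputs ZC3H13 was highest at 32.1 CPM per kb, followed by KIAA1429 at 13.5, WTAP at 11.1, RBM15B at 10.1, METTL3 at 8.42, RBM15 at 8.26, METTL14 at 7.16, CBLL1 at 5.73 and METTL16 at 2.70 CPM per kb. Only METTL3 and RBM15 had overlapping ranges among neighbours in this order. In the shMETTL14 inputs METTL14 moved from rank 7 to rank 9, at 2.06 CPM per kb, below METTL16 at 3.02 CPM per kb. RBM15B moved above WTAP, at 14.1 against 10.7 CPM per kb. No neighbours overlapped in the shMETTL14 order. Against all 22953 genes tested in the model of 8 libraries, the control level per length of ZC3H13 stood at percentile 93.7, that of METTL14 at 71.8 and that of METTL16 at 50.3.

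**Figure D3:**
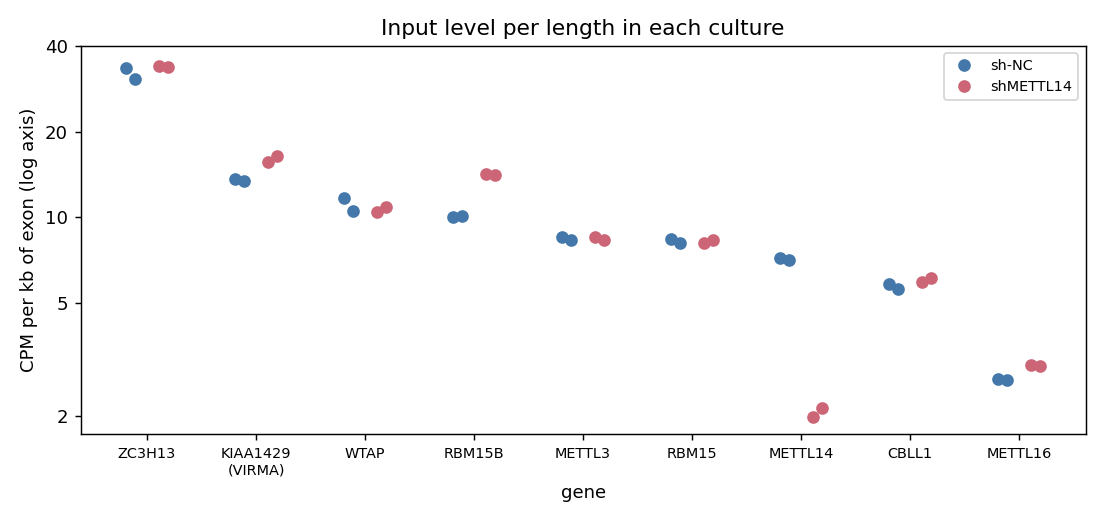
Input level in CPM per kb of exon (log axis) in each culture, genes ordered by their sh-NC level, with blue points for sh-NC and red points for shMETTL14. ZC3H13 is highest in both arms, METTL14 falls from 7.16 to a mean of 2.06 CPM per kb, and RBM15B moves above WTAP.

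Next, the pull-down of these mRNAs by the m6A antibody was examined within each arm. In sh-NC cells 8 of the 9 mRNAs were higher in IP than in input, where 29.1% of 22953 genes were higher. None of the 9 was lower, where 29.8% were lower. In shMETTL14 cells the count was again 8 of 9 higher, where 28.9% of genes were higher, and 0 lower, where 29.1% were lower. METTL3 was the gene that did not pass in either arm with TMM scaling. The median log2 of IP over input in sh-NC was 0.66 over the 9 genes and -0.01 over all genes, and in shMETTL14 it was 0.71 against -0.01.

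ZC3H13 had the highest IP over input, with ratios of 1.90 and 2.16 in the sh-NC cultures against 1.88 and 1.86 in the shMETTL14 cultures. Its IP level was 651.9 and 680.1 CPM in sh-NC against 655.6 and 644.9 CPM in shMETTL14. The log2 enrichment was 1.02 in sh-NC (adjusted p = 3.7e-28 from edgeR), at percentile 94.3 of all genes, and 0.90 in shMETTL14. RBM15 followed, with ratios of 1.92 and 2.03 in sh-NC against 1.85 and 1.77 in shMETTL14, and overlapped ZC3H13 in sh-NC. In the IPs RBM15 stood at 75.4 and 76.8 CPM in sh-NC against 70.3 and 68.9 CPM in shMETTL14. RBM15B ranked 3 in sh-NC, at 1.76 and 1.79, and 5 in shMETTL14, at 1.62 and 1.64, below WTAP and METTL14. The adaptor mRNAs and ZC3H13 thus lay at percentile 90.1 or above in control cells.

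The METTL14 mRNA was itself enriched, and it remained so at its lower level. Its IP level was 78.1 and 78.0 CPM in sh-NC against 24.8 and 23.3 CPM in shMETTL14, so the IP level was lower along with the input. IP over input was 1.58 and 1.60 in sh-NC against 1.81 and 1.59 in shMETTL14, and the arms overlapped. On the log2 scale this was 0.67 in sh-NC (adjusted p = 1.99e-15 from edgeR) and 0.76 in shMETTL14 (adjusted p = 1.17e-13). WTAP had ratios of 1.44 and 1.74 in sh-NC against 1.79 and 1.66 in shMETTL14, and its spread between sh-NC cultures was the widest among the 9 genes. The WTAP level in the IPs was 98.4 and 106.8 CPM in sh-NC against 109.0 and 105.4 CPM in shMETTL14.

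CBLL1 showed moderate enrichment, with ratios of 1.39 and 1.51 in sh-NC against 1.37 and 1.28 in shMETTL14. Its IP level was 44.5 and 46.4 CPM in sh-NC against 44.8 and 43.0 CPM in shMETTL14. METTL16 stood at 1.31 and 1.30 in sh-NC against 1.29 and 1.203 in shMETTL14, from IP levels of 31.7 and 31.2 CPM in sh-NC against 35.0 and 32.3 CPM in shMETTL14. These genes were pulled down less than the adaptors in every culture. KIAA1429 (VIRMA) was enriched less, at 1.18 and 1.22 in sh-NC against 1.13 and 1.09 in shMETTL14, and its IP level was 173.1 and 175.6 CPM in sh-NC against 190.5 and 192.4 CPM in shMETTL14. Its log2 enrichment in shMETTL14 of 0.15 (adjusted p = 0.00112 from edgeR) did not pass without shMETTL14 culture 1 (0.12, adjusted p = 0.123) or with scaling by library size (0.03, adjusted p = 0.534). METTL3 was lowest, at 1.05 and 1.04 in sh-NC against 1.07 and 1.06 in shMETTL14, with log2 values of 0.07 (adjusted p = 0.291 from edgeR) and 0.09 (adjusted p = 0.153). In the IPs METTL3 stood at 52.8 and 50.9 CPM in sh-NC against 53.9 and 51.9 CPM in shMETTL14, close to its input. Of the mRNAs of the catalytic pair, METTL14 lay at percentile 84.4 and METTL3 at percentile 54.3 of all genes in control cells, and their ratios did not overlap in either arm. Among neighbours in the order of IP over input, the ranges of RBM15, WTAP, METTL14 and RBM15B overlapped in a chain in shMETTL14, and so did those of CBLL1 and METTL16, while in sh-NC WTAP overlapped METTL14.

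These enrichments are relative to the other genes and depend on the scaling. With library size only, the median of all genes moved from -0.01 to -0.14 in sh-NC, 5358 genes were higher and 8250 lower in place of 6689 and 6833, and METTL3 stood at -0.06. When the factors were taken from the least enriched 25% of genes, the median was 0.90, and 16312 genes were higher and 1085 lower. METTL3 then stood at 0.98 in sh-NC and 0.94 in shMETTL14 and passed in both arms, so its call depends on the scaling. A change of scaling moves all genes alike, so the distance of METTL3 from the median hardly changes, by construction. In shMETTL14 the corresponding numbers were 5322 higher and 8080 lower, and 15953 higher and 1119 lower, in place of 6633 and 6673.

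**Figure D4:**
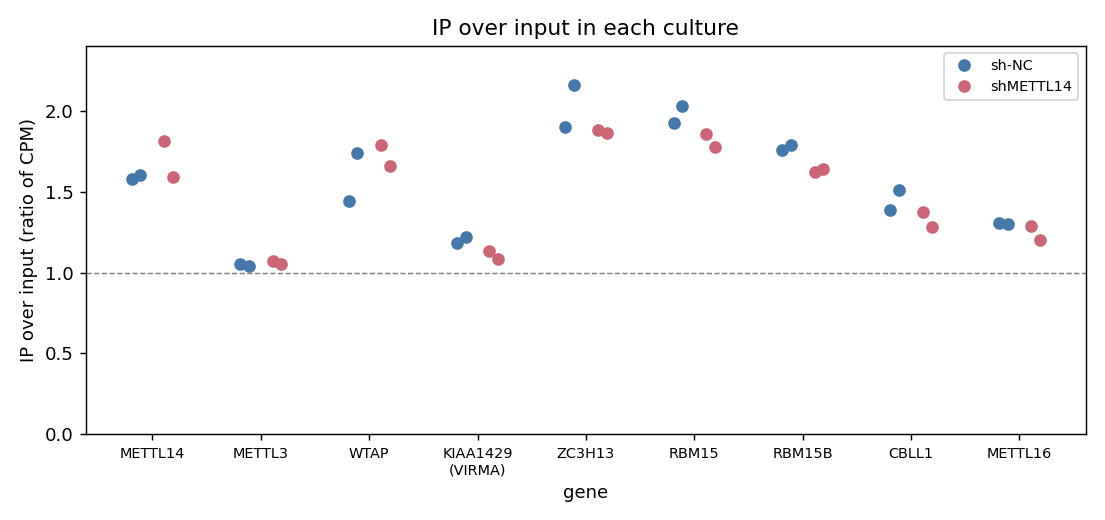
Ratio of IP to input CPM (vertical axis, from 0) in each of the 2 cultures per arm, blue for sh-NC and red for shMETTL14, with a dashed line at 1. ZC3H13 and RBM15 lie near 2, METTL3 lies just above 1 in all cultures, and METTL14 lies between 1.58 and 1.81.

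For reference, the genes also differ in structure. The longest merged exon took up all of RBM15B, 89.6% of RBM15, 79.2% of METTL14, 64.3% of CBLL1 and 60.5% of METTL16. It took up 43.5% of METTL3, 35.1% of KIAA1429, 30% of WTAP and 27.6% of ZC3H13. The table holds counts per whole gene, so the place of m6A within these mRNAs was not analysed here.

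IP over input was then compared between sh-NC and shMETTL14, as an interaction in the model of 8 libraries. None of the 9 mRNAs passed the adjusted threshold in either direction, where 0% of 22953 genes were higher and 0.00436% (1 gene) lower. At an unadjusted p under 0.05, 1 of the 9 was lower and 0 were higher, where 3.31% of genes were lower and 3.03% higher, and DESeq2 passed 0 of the 22953 genes after adjustment. Because each library is scaled to its own reads, a loss of m6A shared equally by every gene would not appear in these values. With 2 cultures against 2, an exact permutation test of a single ratio cannot go below p = 0.333.

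The 9 mRNAs were split in direction. METTL14, METTL3 and WTAP had positive changes, of 0.09 (95% interval -0.08 to 0.27), 0.02 (-0.13 to 0.17) and 0.12 (-0.02 to 0.27) on the log2 scale. KIAA1429, ZC3H13, RBM15, RBM15B, CBLL1 and METTL16 had negative changes, from -0.13 for CBLL1 to -0.07 for METTL16. In these 6 genes the cultures' ratios were lower in shMETTL14 with no overlap between the arms, where 17.4% of 22792 genes with reads in every input were lower without overlap. In 1 gene, METTL3, they were higher without overlap, where 17.3% were, and there the nearest cultures stood at 1.054 and 1.055. METTL14 and WTAP overlapped. The median change was -0.11 over the 9 genes and 0.00 over all genes tested.

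ZC3H13 was the gene with an unadjusted p under 0.05, with a change of -0.11 (95% interval -0.220 to -0.00421, adjusted p = 0.767 from edgeR). Its value depended on sh-NC culture 1, the control culture with the higher input and lower ratio. Without that culture the change was -0.22 (adjusted p = 0.00857), and with the other cultures left out in turn it did not pass and reached -0.02. For WTAP, leaving out the same culture took the change from 0.12 to -0.03. For METTL14, leaving out shMETTL14 culture 1 took it from 0.09 to -0.00. RBM15B, which rose in input, also had a higher IP level, at 117.2 and 119.8 CPM in sh-NC against 152.4 and 154.0 CPM in shMETTL14, with a change of IP over input of -0.12 (95% interval -0.24 to 0.00, adjusted p = 0.79 from edgeR). With every DCAF1 read taken off, this change was -0.39 (adjusted p = 0.0566).

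**Figure D5:**
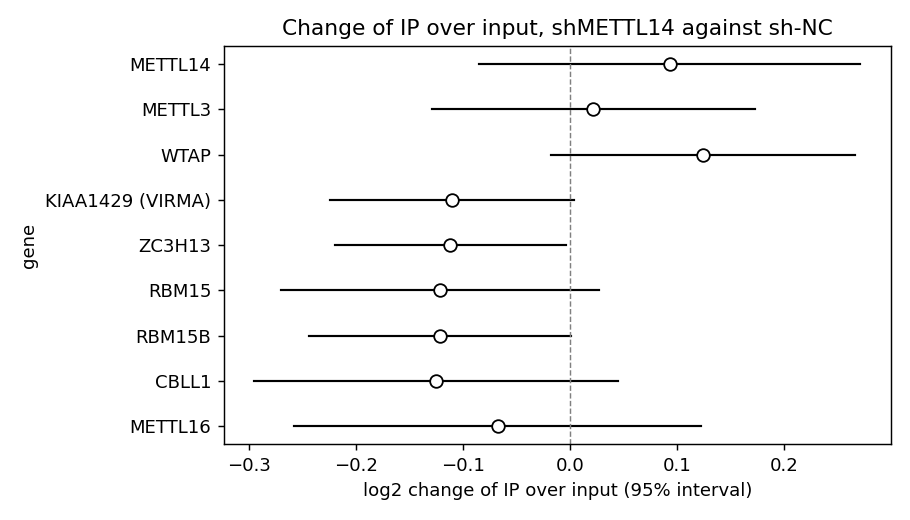
Log2 change of IP over input in shMETTL14 against sh-NC (horizontal axis) for the 9 genes, with 95% intervals from the model of 8 libraries; open points did not pass the adjusted threshold of 0.05. Points of METTL14, METTL3 and WTAP lie right of 0 and the other 6 lie left of 0, and the interval of ZC3H13 ends just below 0.

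For the genes around the complex, 19 of 20 other m6A genes were tested, and IGF2BP1, an m6A reader with at most 13 counts in a library, was not. In the input libraries 4 rose, where 11.7% of all genes did, 3 fell, where 12.3% did, and 12 did not pass, with a median log2 fold change of 0.01. MAT2B, the regulatory subunit of the methyl donor enzyme, rose from 29.3 and 30.6 CPM to 38.3 and 38.1 CPM (log2 fold change 0.36, adjusted p = 7.95e-05 from edgeR). The catalytic subunit MAT2A, whose mRNA METTL16 methylates, rose by 0.11 (adjusted p = 0.033), the nuclear reader YTHDC1 by 0.12 (adjusted p = 0.0107) and HNRNPA2B1, an RNA-binding protein described as a reader, by 0.09 (adjusted p = 0.0161). The cytoplasmic reader YTHDF3 went from 58.1 and 59.1 CPM to 47.1 and 48.7 CPM (-0.29, adjusted p = 0.000136). AHCY, which clears the by-product of methylation, went from 135.6 and 136.3 CPM to 113.7 and 118.0 CPM (-0.22, adjusted p = 0.000128). The reader IGF2BP3 was the third that fell, and no demethylase was among the genes that passed.

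Enrichment in IP was mixed in this list. In sh-NC 7 of the 19 were higher, where 29.1% of all genes were, 8 were lower, where 29.8% were, and 4 did not pass, with a median log2 of -0.18, against 0.66 over the 9 writer genes. The reader mRNAs YTHDF2 (0.80), YTHDF3 (0.78), YTHDC1 (0.77) and YTHDF1 (0.55) were higher in IP, and AHCY (-0.66) and MAT2A (-0.47) were lower, each with an edgeR adjusted p no larger than 4.16e-14. Of the other YTH and IGF2BP genes tested, IGF2BP3 was lower (-0.21, adjusted p = 0.000128 from edgeR), and YTHDC2 (-0.12) and IGF2BP2 (-0.25) did not pass. In shMETTL14 7 were higher, where 28.9% of all genes were, 9 were lower, where 29.1% were, and 3 did not pass. The change of IP over input passed for 0 of the 19 genes by edgeR, and 1, YTHDC1, was lower at an unadjusted p under 0.05 (-0.18, adjusted p = 0.562), where 3.31% of all genes were.

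The mRNAs of the METTL14 regulators were both lower in knockdown cells, where 12.3% of the 22245 genes tested were lower. Their fold changes lay at percentiles 22.7 (YY1) and 19.4 (ETS1) of all genes. In the study, knockdown of YY1 lowered METTL14 expression and knockdown of ETS1 raised it. YY1, a zinc-finger factor, had input levels of 146.2 and 141.7 CPM in sh-NC against 122.8 and 125.6 CPM in shMETTL14 (log2 fold change -0.21, adjusted p = 0.000289 from edgeR). ETS1, which binds the ETS-type core shown above, had 75.6 and 73.0 CPM in sh-NC against 63.2 and 61.6 CPM in shMETTL14 (-0.24, adjusted p = 0.000335 from edgeR). Both groups were apart in each case, and both changes were much smaller than that of METTL14.

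Last, the genes whose log2 CPM over the 8 libraries was most like that of METTL14 were SRPK1, ASPH and TMTC2, with Pearson r of 0.998, 0.998 and 0.997 among 16441 genes compared. SRPK1, a kinase of splicing factors, went from 147.2 and 139.0 CPM to 72.7 and 76.6 CPM in input. ASPH, an aspartyl hydroxylase, went from 219.1 and 210.8 CPM to 116.6 and 118.4 CPM, and TMTC2 from 44.6 and 43.3 CPM to 25.1 and 25.3 CPM. All had IP above input in each culture. As these genes were picked for likeness to METTL14 over the same libraries, their lower input and higher IP follow from the pick. The points share 4 groups of 2 libraries, so that these coefficients describe the pattern of 4 group means more than that of 8 separate values.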

How the data were processed

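MeRIP-seq libraries were grouped by their titles as sh-NC or shMETTL14, IP or input, with 2 cultures each. The authors deposited raw read counts per gene, without normalization. The submitters' processing notes name Trimmomatic 0.36 and the build GRCh38. Which aligner and counter were used, with which strand setting, and the use of the unique molecular identifiers of 8 bases before counting are not given in the sources used here. Reads counted without collapsing these identifiers would not be independent molecules. Exons of 5 of the 9 genes overlap a gene of the opposite strand.

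The tests were run with edgeR 4.0.16 under R 4.3.3 (filterByExpr, TMM factors, glmQLFit and glmQLFTest, Benjamini-Hochberg adjustment over all genes tested, threshold 0.05). Input RNA was compared in the 4 input libraries. IP over input within each arm, and its change, came from 1 model of 4 group means over 8 libraries. Standard errors were obtained as the size of the log2 fold change over the root of F, and intervals use the t distribution. Likeness to METTL14 used log2 CPM with a prior count of 2 and was computed over genes with a mean of at least 50 counts. The code was tested on simulated data. Figures were drawn with matplotlib 3.10.9.

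The genes, lists and tests were chosen with earlier results of these data known. Named were the 9 genes, other m6A genes past the threshold (at most 6 per comparison by p-value), YY1 and ETS1. The 3 genes most like METTL14 and genes whose exons overlap were also named. IGF2BP2, IGF2BP3, YTHDC2, the demethylases as a class and the markers were named in addition. Promoters came from RefSeq. IP and input of a culture come from the same RNA, so the protocol pairs them. Over 22953 genes, the correlation of their deviations was 0.004 for sh-NC and 5.7e-05 for shMETTL14. Same-numbered cultures of different arms share only a number (-0.012 in input and in IP). Replicate libraries differed by more than sampling noise (chi-square per gene 2.43 to 4). The alternatives tried were a replicate block, leaving out each culture, DESeq2 1.42.0, scaling by RLE, by library size or on the least enriched genes, no filter on low counts or a minimum of 10 in every library, the IP libraries alone, the input in the model of 8 libraries, and an unadjusted p. Taking off reads of overlapping genes was chosen after seeing the data.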

Additional observations from a re-analysis of the deposited data

How the results depend on the processing

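Of 486 values recomputed for the 9 genes, 461 kept their direction and their side of the threshold. The falls and rises of METTL14, RBM15B and KIAA1429 in input passed under every alternative run, KIAA1429 only narrowly without shMETTL14 culture 2. Changes near 0 turned sign: RBM15 in input was -0.0005073 with DESeq2, -0.0005112 with RLE factors and -0.006508 in the model of 8 libraries, and METTL3 had IP over input of -0.06154 (sh-NC) and -0.03199 (shMETTL14) with library size only and a change of IP over input of -0.03614 with factors from the least enriched genes. With each culture left out, input changes ranged from -0.02661 to 0.02409 for RBM15, -0.1256 to 0.02361 for WTAP and -0.006654 to 0.02358 for METTL3, and the change of IP over input from -0.03103 to 0.2539 for WTAP and from -0.002608 to 0.1877 for METTL14. For the change of IP over input, 0 to 1 of the 9 genes were then lower.

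Counts over all genes moved more. In input, 1082 were higher and 1072 lower with no filter, against 2607 and 2732, and 656 to 2366 higher and 925 to 2590 lower with a culture left out, fewest without shMETTL14 culture 2 and next without shMETTL14 culture 1 (1355 and 1523). IP over input on the least enriched genes was higher for 16312 and lower for 1085 in sh-NC, and for 15953 and 1119 in shMETTL14. For the change of IP over input, the numbers lower were 0 with DESeq2, 2 with RLE factors, 12 with no filter (1 higher), 3 with at least 10 counts, 5 on the least enriched genes (1 higher) and 0 to 116 with a culture left out (0 to 9 higher), most without sh-NC culture 1. At an unadjusted p under 0.05 they were 696 higher and 760 lower, 1 of them among the 9 genes. The IP libraries alone, which mix RNA level and m6A, gave 2207 higher and 2667 lower, with 2 of the 9 genes higher and 2 lower: METTL14 -1.703, RBM15 -0.1295, KIAA1429 0.1344 and RBM15B 0.3701, with METTL16 at 0.09294 not passing. The causes were not tested.

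In input the replicate block was the culture number, and METTL14 was then -1.789 and RBM15B 0.4995. For IP over input and its change, the block was the culture within its arm, which pairs each IP with its input. Blocking changed 0 of 36 calls of the 9 genes. Depth limits the genes with few counts: for the change of IP over input the standard error was 0.0947 for METTL16 and 0.0845 for CBLL1, but 0.0537 for ZC3H13, with the same 2 cultures per arm.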
